A study of Rattus norvegicus with 21 samples.

Results

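A set of 7 genes of microglial lipid handling, phagocytosis and lysosomal breakdown were examined: Apoe, Spp1, Lpl, Lgals3, Cd68, Ctsb and Ctsd. They were chosen by name and found by Ensembl gene ID: ENSRNOG00000018454 (Apoe), ENSRNOG00000043451 (Spp1), ENSRNOG00000012181 (Lpl), ENSRNOG00000010645 (Lgals3), ENSRNOG00000037563 (Cd68), ENSRNOG00000010331 (Ctsb) and ENSRNOG00000020206 (Ctsd). They make up 7 of the 32883 IDs measured. All 7 had counts in every library and all 7 passed the filter on low counts in each comparison. The symbols came with the list of IDs, because the count tables hold IDs alone.

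The libraries came from wild type LEW/Crl rats, 6 to 8 weeks old, that had been given PBS, neomycin (NEO) or vancomycin (VANCO) by the intratracheal route for 7 days. Total cord RNA was taken from the pellet left after homogenisation and removal of myelin on a Percoll gradient, and microglia were sorted from such material as CD45low CD11b+ cells. For each treatment 4 microglia libraries (replicate numbers 1, 2, 3 and 5) and 3 total cord libraries (1, 2 and 3) were sequenced. Whether a library is 1 animal or a pool is not stated, so the p-values measure only the spread between these samples, which may be technical.

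Microglia are the resident macrophages of the central nervous system, and they clear debris by engulfing it and digesting it in lysosomes. Apoe encodes a lipid carrier, and Lpl encodes lipoprotein lipase, which releases fatty acids from triglycerides. Cd68 encodes a glycoprotein of late endosomes and lysosomes, Ctsb and Ctsd encode lysosomal proteases, Lgals3 encodes the galactoside-binding lectin galectin-3, and Spp1 encodes osteopontin, a secreted phosphoprotein. Raised expression of these genes is commonly read as a sign of microglial activation, but several of them are not restricted to microglia: astrocytes are a main source of Apoe in the healthy central nervous system.

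Promoter windows are shown for 3 genes whose levels differed between the tissues, because they differ in the short motifs they hold. The RefSeq promoter table (GRCr8) had entries for 4 of the 7 genes, namely Apoe, Cd68, Ctsd and Spp1. The following 4 motifs were searched on both strands: CACGTG, the core of the element bound by TFEB, a regulator of lysosomal genes; TGACTCA, an AP-1 motif; GAGGAAGT, a PU.1-type motif; and TATAAA. None of the motifs overlaps another. Each line gives the 250 bases before the start site, 5′ to 3′ on the gene's own strand, with matches in capitals.
Ctsd: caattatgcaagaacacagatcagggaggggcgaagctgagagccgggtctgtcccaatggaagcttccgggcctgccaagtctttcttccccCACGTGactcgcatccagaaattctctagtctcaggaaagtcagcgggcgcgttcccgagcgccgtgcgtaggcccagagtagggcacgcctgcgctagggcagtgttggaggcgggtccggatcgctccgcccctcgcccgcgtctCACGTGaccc
Cd68: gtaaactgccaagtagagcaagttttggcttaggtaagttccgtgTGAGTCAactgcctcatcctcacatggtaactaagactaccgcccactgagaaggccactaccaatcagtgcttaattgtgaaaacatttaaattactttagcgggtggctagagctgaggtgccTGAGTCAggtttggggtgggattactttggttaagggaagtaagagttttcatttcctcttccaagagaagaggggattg
Spp1: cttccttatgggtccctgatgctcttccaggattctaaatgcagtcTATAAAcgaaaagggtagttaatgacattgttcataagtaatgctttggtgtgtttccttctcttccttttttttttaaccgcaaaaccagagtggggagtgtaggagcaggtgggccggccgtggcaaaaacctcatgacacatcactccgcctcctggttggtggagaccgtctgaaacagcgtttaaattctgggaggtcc
The Ctsd window (chr1:206968822-206969071, minus strand) holds CACGTG 2 times, beginning 157 and 10 bases before the start, and 5.59% of the 33469 windows in the table hold it at least once. The Cd68 window (chr10:54882442-54882691, minus strand) holds TGACTCA 2 times in its reverse form, TGAGTCA, beginning 205 and 80 bases before the start, and 4.05% of windows hold that motif. The Spp1 window (chr14:5619805-5620054, minus strand) holds TATAAA 1 time, 204 bases before the start, and 12.9% of windows hold it. GAGGAAGT, found in 2.04% of windows, was in none of these 3. None of the 4 motifs was found in any of the 3 windows listed for Apoe. These matches describe the letters only.

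Library totals were 9020480 to 22435887 counts in microglia and 16769410 to 25114844 in total cord, and the 7 genes together took 0.652% to 1.05% of counts in microglia and 0.448% to 0.508% in cord. Since cell type markers could not be looked up by name, cord RNA in the sorted cells was followed by a set of 1548 genes whose level in PBS cord exceeded that in PBS microglia by 64-fold or more, and whose summed part of a library is called the cord share here. It was 28.7% to 33.2% in cord libraries and 0.0367% to 0.306% in 11 microglia libraries. The NEO microglia library numbered 2 stood apart at 2.56% (95% Wilson interval 2.56% to 2.57%, counting error only), which is 8.42% of the mean cord share. The main fold changes and microglial correlations that rest on this library are given with and without it.

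Sorted microglia differed from total cord in 6 of the 7 genes in the PBS groups, and the genes moved in opposite directions. The 3 lysosomal genes Cd68, Ctsb and Ctsd were higher in microglia, Spp1, Lpl and Apoe were higher in cord, and Lgals3 did not pass the test. Of all 15546 genes tested by edgeR at an adjusted p under 0.05, 45% were higher in microglia and 39.1% higher in cord (6991 and 6074 genes), so most genes differed between these tissues and 6 of 7 is near that background. With RLE scaling the split over all genes was 5143 to 7367, and with DESeq2 it was 5152 to 7011. In bulk RNA, fewer cells of a type and less RNA per cell cannot be told apart.

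Cd68 had the widest separation among the genes higher in microglia. Its levels, in counts scaled by the library total (CPM), were 85.5, 104, 81.5 and 88.6 in PBS microglia (libraries 1, 2, 3 and 5) and 4.6, 4.16 and 3.28 in PBS cord (libraries 1, 2 and 3). No microglia library came near any cord library. In edgeR's quasi-likelihood test Cd68 was 20.6-fold higher in microglia (log2 fold change 4.37, SE 0.22, adjusted p = 3.73e-12). The ratio of mean CPM was 22.4 under PBS, 19 under NEO and 20.6 under VANCO, so the gap was present under each treatment.

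The cathepsins were abundant in both tissues and higher in microglia. Ctsb, a cysteine protease, was at 3110, 3940, 3620 and 3830 CPM in PBS microglia and 495, 565 and 455 CPM in PBS cord. Ctsd, an aspartic protease, was at 1970, 2720, 2420 and 2660 CPM in PBS microglia and 427, 471 and 407 CPM in PBS cord. For neither gene did the tissues overlap. By edgeR, Ctsb was 6.59-fold higher in microglia (log2 fold change 2.72, SE 0.13, adjusted p = 2.35e-12). Ctsd was 5.16-fold higher (log2 fold change 2.37, SE 0.16, edgeR adjusted p = 2.59e-10). The ratio of mean CPM stayed between 7.12 and 7.29 for Ctsb and between 5.15 and 5.61 for Ctsd over the 3 treatments.

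Among the lipid genes, Apoe was high in both tissues and Lpl had few counts in microglia. Apoe was at 2330, 3690, 2390 and 2700 CPM in PBS microglia and 3680, 3790 and 3610 CPM in PBS cord. The PBS microglia library numbered 2 lay inside the cord range and the other 3 lay below it. By edgeR Apoe was 1.44-fold higher in cord (log2 fold change of microglia against cord -0.53, SE 0.2, adjusted p = 0.0204). This call was lost when the PBS microglia library 1 (log2 fold change -0.44, adjusted p = 0.0617), PBS microglia library 3 (-0.46, adjusted p = 0.058) or PBS cord library 2 (-0.5, adjusted p = 0.0558) was left out. Its size also moved with scaling, to -1.03 with RLE factors, and relative to the median of all genes it was -0.74 with either scaling.

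Lpl was counted only 9, 5, 15 and 16 times in PBS microglia, or 0.804, 0.554, 0.858 and 0.713 CPM. In PBS cord it was at 18.7, 22.1 and 10.3 CPM. Every microglia library was below every cord library. By edgeR Lpl was 24.8-fold higher in cord (log2 fold change of microglia against cord -4.63, SE 0.45, adjusted p = 3.7e-08).

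Spp1 had the largest difference of the 7 genes and the most uneven values in microglia. It was counted 22, 26, 27 and 2 times in PBS microglia (1.96, 2.88, 1.54 and 0.0891 CPM) and stood at 102, 141 and 104 CPM in PBS cord. All microglia libraries were far below all cord libraries, and library 5 was lowest among them. By edgeR Spp1 was 85.8-fold higher in cord (log2 fold change of microglia against cord -6.42, SE 1.13, adjusted p = 5.24e-05). The replicate block gave 124-fold and left the call in place.

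Lgals3 overlapped between the tissues. It was at 31.3, 28.2, 75.4 and 23 CPM in PBS microglia and 28.8, 35.8 and 37.5 CPM in PBS cord. Microglia library 3 was above all cord libraries and library 5 below them. The edgeR log2 fold change of microglia against cord was 0.08 (SE 0.55, 95% interval -1.08 to 1.24, adjusted p = 0.89), and the sign turned with scaling, to -0.43 with RLE factors and -0.24 with upper quartile factors.

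**Figure D1:**
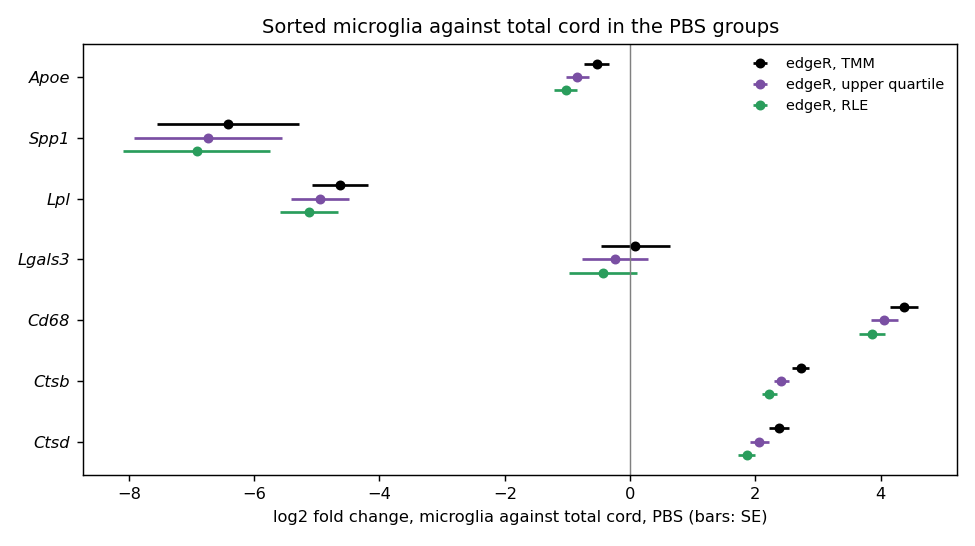
Log2 fold change of each gene in PBS microglia (4 libraries) against PBS total cord (3 libraries), with points for the edgeR estimate under 3 scalings and bars for the standard error. Cd68, Ctsb and Ctsd lie right of 0 and Spp1, Lpl and Apoe left of it under each scaling, and Lgals3 lies near 0 with a sign that depends on the scaling.

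Neomycin and vancomycin are antibiotics, and the series asks whether such treatment of the airway changes gene expression in the central nervous system. For these 7 genes no antibiotic comparison gave a call. In microglia 0 of 7 passed edgeR's adjusted p of 0.05 for NEO against PBS, VANCO against PBS or NEO against VANCO, where 0.0398%, 0% and 0% of all 12570 genes tested did. In cord 0 of 7 passed in the same 3 comparisons, where 0%, 0% and 0% of 14677 genes did. With the replicate number as a block the members' count was again 0 of 7 each time, against a background of 0.748%, 0% and 0.167% in microglia and 0.681%, 0.00681% and 0.436% in cord. DESeq2 and limma-voom also called 0 of the 7. At an unadjusted p under 0.05 edgeR without the block had 1 member, Lpl for NEO against VANCO in microglia, and 0 members in the other 5 comparisons. With the block it had Lpl in the same comparison, where 6.44% of all genes were under 0.05. In cord it then also had Spp1 for NEO against PBS (10.3% of all genes) and NEO against VANCO (8.82%). Lgals3 was a further one, in cord for VANCO against PBS (2.95%). The comparisons with PBS share the PBS libraries, so they are not independent of each other.

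The members' median log2 fold change was between -0.1 and 0.03 over the 6 comparisons. For NEO against PBS in microglia it was -0.06, with 3 of 7 values above 0, and for VANCO against PBS it was -0.1, with 2 of 7 above 0. The medians in cord were 0.01 and -0.01. The median over all genes tested was 0, 0.01, 0 and 0 in these 4 comparisons.

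In microglia the lysosomal genes had the lowest within-group spread of the set. Cd68 was at 80.7, 81.1, 83.4 and 87.1 CPM in NEO microglia and 85.6, 103, 77.7 and 70.6 CPM in VANCO microglia. Both ranges overlap the PBS values. Its edgeR log2 fold change against PBS was -0.11 for NEO (95% interval -0.42 to 0.2) and -0.1 for VANCO (-0.41 to 0.22). In cord Cd68 was at 5.15, 4.37 and 3.62 CPM under NEO and 4.78, 4.88 and 2.6 CPM under VANCO, again overlapping PBS. NEO was above PBS within each of the 3 numbers there, by 0.07 to 0.16 on the log2 scale. The cord intervals were wider, -0.34 to 0.6 for NEO and -0.44 to 0.51 for VANCO, at 213 to 271 Cd68 counts per cord group.

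Ctsb was at 3260, 3080, 3600 and 3900 CPM in NEO microglia and 3280, 3940, 3570 and 3760 CPM in VANCO microglia. The 3 treatments occupy the same range. The edgeR 95% interval of its log2 fold change against PBS was -0.32 to 0.19 for NEO and -0.25 to 0.25 for VANCO. In cord Ctsb was at 495, 511 and 453 CPM under NEO and 507, 536 and 453 CPM under VANCO, with log2 fold changes of -0.05 and -0.01.

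Ctsd was at 2090, 1690, 2230 and 2590 CPM in NEO microglia and 1920, 2470, 2470 and 2200 CPM in VANCO microglia. NEO library 2, with its raised cord share, had the lowest value of all 12. By edgeR, NEO against PBS gave a log2 fold change of -0.18 (SE 0.15, 95% interval -0.51 to 0.14), and -0.1 without that library. For VANCO it was -0.11 (95% interval -0.44 to 0.22). Cord Ctsd was at 407, 449 and 396 CPM under NEO and 422, 442 and 412 CPM under VANCO. Both groups overlap PBS, although NEO library 3 was below all PBS cord libraries and NEO was below PBS within each of the 3 numbers (log2 differences of -0.07 to -0.04). The edgeR log2 fold changes were -0.05 (95% interval -0.23 to 0.13) for NEO and -0.03 (-0.2 to 0.15) for VANCO.

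Apoe was at 2270, 1640, 2750 and 2990 CPM in NEO microglia and 2200, 3260, 2520 and 2810 CPM in VANCO microglia. Library 2 was the highest of its group under PBS and VANCO and the lowest under NEO. In edgeR the log2 fold change for NEO against PBS was -0.21 (SE 0.21, 95% interval -0.68 to 0.26), and -0.08 without NEO library 2. Within replicate numbers 1, 2, 3 and 5 the differences were -0.03, -1.17, 0.21 and 0.15, so number 2 alone differed by more than 1 on the log2 scale. With every library numbered 2 left out the estimate was 0.13 (SE 0.11, edgeR adjusted p = 1). In cord Apoe was at 3610, 3910 and 3570 CPM under NEO and 3700, 3770 and 3470 CPM under VANCO. Those values gave the tightest intervals of the set, -0.15 to 0.17 for NEO and -0.17 to 0.14 for VANCO.

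Lpl was the gene with the smallest unadjusted p under antibiotics in the analysis without the block. It was counted 13, 19, 26 and 16 times in NEO microglia (0.674, 1.75, 1.3 and 0.749 CPM) and 2, 5, 17 and 8 times in VANCO microglia (0.133, 0.326, 0.812 and 0.544 CPM). NEO exceeded VANCO within each of the 4 replicate numbers, by 0.39 to 2.08 on the log2 scale, while the groups as a whole overlapped. NEO against VANCO had an edgeR log2 fold change of 1.28 (SE 0.5, 95% interval 0.19 to 2.37, unadjusted p = 0.0252, adjusted p = 0.999), and 2.14% of all genes had an unadjusted p under 0.05 in that comparison. With the block it was 1.27 (edgeR unadjusted p = 0.016, adjusted p = 0.69), and without NEO library 2 it was 0.96. Lpl in that library stood at 10.1% of its mean cord level, beside a cord share of 8.42%. In NEO libraries 1, 3 and 5 it stood at 3.88%, 7.47% and 4.32%, beside cord shares of 0.12%, 0.323% and 0.317%. In VANCO libraries 1, 2, 3 and 5 it stood at 0.767%, 1.88%, 4.68% and 3.14%, beside 0.127%, 0.995%, 0.212% and 0.318%. Only in NEO library 2 were the Lpl level and the cord share close, and the part of cord RNA was not tested. With the block and the cord share as a covariate the NEO against VANCO estimate was 0.88 (SE 0.42, edgeR adjusted p = 0.716), a covariate dominated by NEO library 2. Against PBS, microglial Lpl had a log2 fold change of 0.61 (SE 0.49, 95% interval -0.46 to 1.68) for NEO, with 3 of 4 numbers higher. Leaving out NEO library 2 lowered this to 0.3 (SE 0.5), or 0.21 (SE 0.42) with the block. For VANCO it was -0.67 (SE 0.51, 95% interval -1.77 to 0.43), with VANCO below PBS within all 4 numbers (log2 differences of -1.89 to -0.07) and overlapping groups. In cord Lpl was at 19.5, 21.2 and 11.5 CPM under NEO and 16.5, 27.3 and 9.15 CPM under VANCO, with overlapping groups and log2 fold changes against PBS of 0.03 and 0.06.

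Spp1 in NEO microglia was set by 1 library. It was counted 1, 126, 6 and 4 times there (0.0518, 11.6, 0.299 and 0.187 CPM) and 3, 15, 4 and 6 times in VANCO microglia (0.2, 0.979, 0.191 and 0.408 CPM). NEO library 2 held 126 of the 137 Spp1 counts of its group. The edgeR log2 fold change for NEO against PBS was 0.93 (SE 1.41, 95% interval -2.18 to 4.04). It changed sign to -3.11 (SE 1.03, adjusted p = 0.57) without that library and to -0.55 with the block. It was -2.36 with the block and the cord share as a covariate, and also -2.36 with the block and without NEO library 2. That covariate is dominated by NEO library 2, so it is hardly a separate adjustment. None of these passed the threshold. For VANCO against PBS it was -1.84 (SE 1.51, 95% interval -5.17 to 1.48, edgeR adjusted p = 1). For NEO against VANCO it was 2.78 (SE 1.53), and -1.27 without NEO library 2.

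Spp1 and the cord share were compared library by library, each as a percent of its mean in cord. In NEO library 2 Spp1 stood at 9.71% of its mean cord level and the cord share at 8.42%. In the other NEO libraries, 1, 3 and 5, Spp1 stood at 0.0433%, 0.25% and 0.157%, beside cord shares of 0.12%, 0.323% and 0.317%. In VANCO libraries 1, 2, 3 and 5 Spp1 stood at 0.167%, 0.818%, 0.16% and 0.341%, beside cord shares of 0.127%, 0.995%, 0.212% and 0.318%. Spp1 was thus below the cord share in these 3 NEO libraries and in VANCO libraries 2 and 3, and above it in VANCO libraries 1 and 5. In PBS libraries 1, 2 and 3 Spp1 stood at 1.64%, 2.41% and 1.29% of its cord level, beside cord shares of 0.278%, 1% and 0.368%. PBS library 5 had a similar cord share, 0.327%, and Spp1 at 0.0745% of the cord level. Spp1 was above the cord share in 3 PBS libraries and below it in the other, at 2 to 27 Spp1 counts each. The cord-enriched genes were picked for being low in these same PBS microglia libraries, which can lower the PBS shares alone. PBS therefore cannot be set against NEO or VANCO by this measure.

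**Figure D2:**
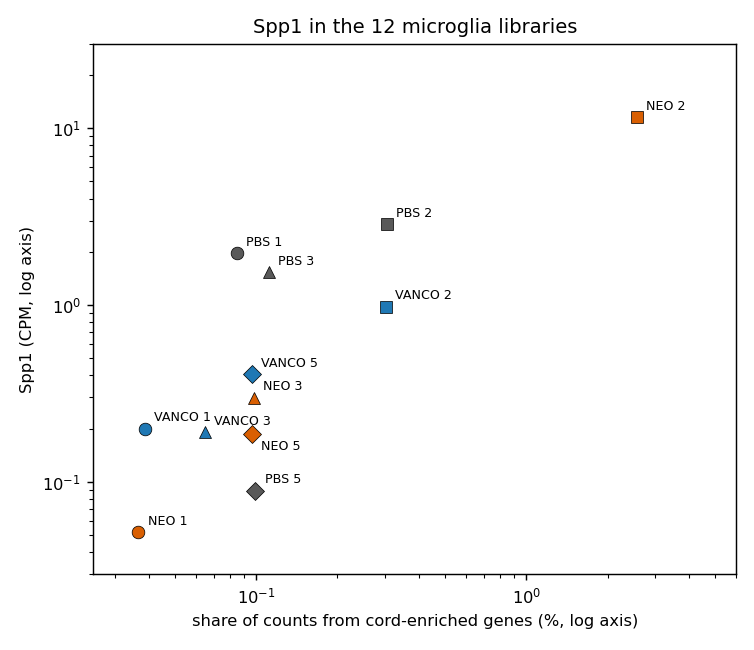
Spp1 (CPM, log axis) against the cord share (percent of counts in cord-enriched genes, log axis) in the 12 microglia libraries, 1 point each, with colour for treatment and marker shape for replicate number. NEO library 2 is highest on both axes at 11.6 CPM and 2.56%, and PBS libraries 1, 3 and 5 span 0.0891 to 1.96 CPM at shares of 0.0848% to 0.112%.

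Cord Spp1 was even by comparison, at 126, 152 and 103 CPM under NEO and 106, 142 and 101 CPM under VANCO, all overlapping PBS. The edgeR log2 fold change of NEO against PBS was 0.14 (SE 0.18). With the replicate block it was again 0.14 (SE 0.06, unadjusted p = 0.0198, adjusted p = 0.37), where 10.3% of all genes had an unadjusted p under 0.05. NEO against VANCO with the block gave 0.13 (SE 0.06, edgeR unadjusted p = 0.0264, adjusted p = 0.473), where 8.82% did. NEO was above VANCO within each of the 3 numbers, by 0.04 to 0.25 on the log2 scale.

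Lgals3 was at 22.1, 20.8, 94.2 and 29.1 CPM in NEO microglia and 41.2, 33.4, 95.4 and 20.7 CPM in VANCO microglia. Library 3 was the highest in each treatment, and the treatments overlapped. The edgeR log2 fold change against PBS was 0.09 for NEO (95% interval -1.29 to 1.47) and 0.28 for VANCO (-1.1 to 1.66). The block narrowed both, to -0.01 (-0.43 to 0.41) and 0.23 (-0.19 to 0.65). Without the block, the NEO estimate was 0.3 (SE 0.69) on leaving out NEO library 2. On leaving out NEO library 3 it was -0.71 (SE 0.53). In cord Lgals3 was at 32.1, 32 and 29.9 CPM under NEO and 27.9, 31.8 and 28.8 CPM under VANCO. VANCO was below PBS within each of the 3 numbers (log2 differences of -0.38 to -0.05), with overlapping groups. With the block the edgeR log2 fold change was -0.2 (SE 0.07, unadjusted p = 0.014, adjusted p = 1), where 2.95% of all genes had an unadjusted p under 0.05.

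**Figure D3:**
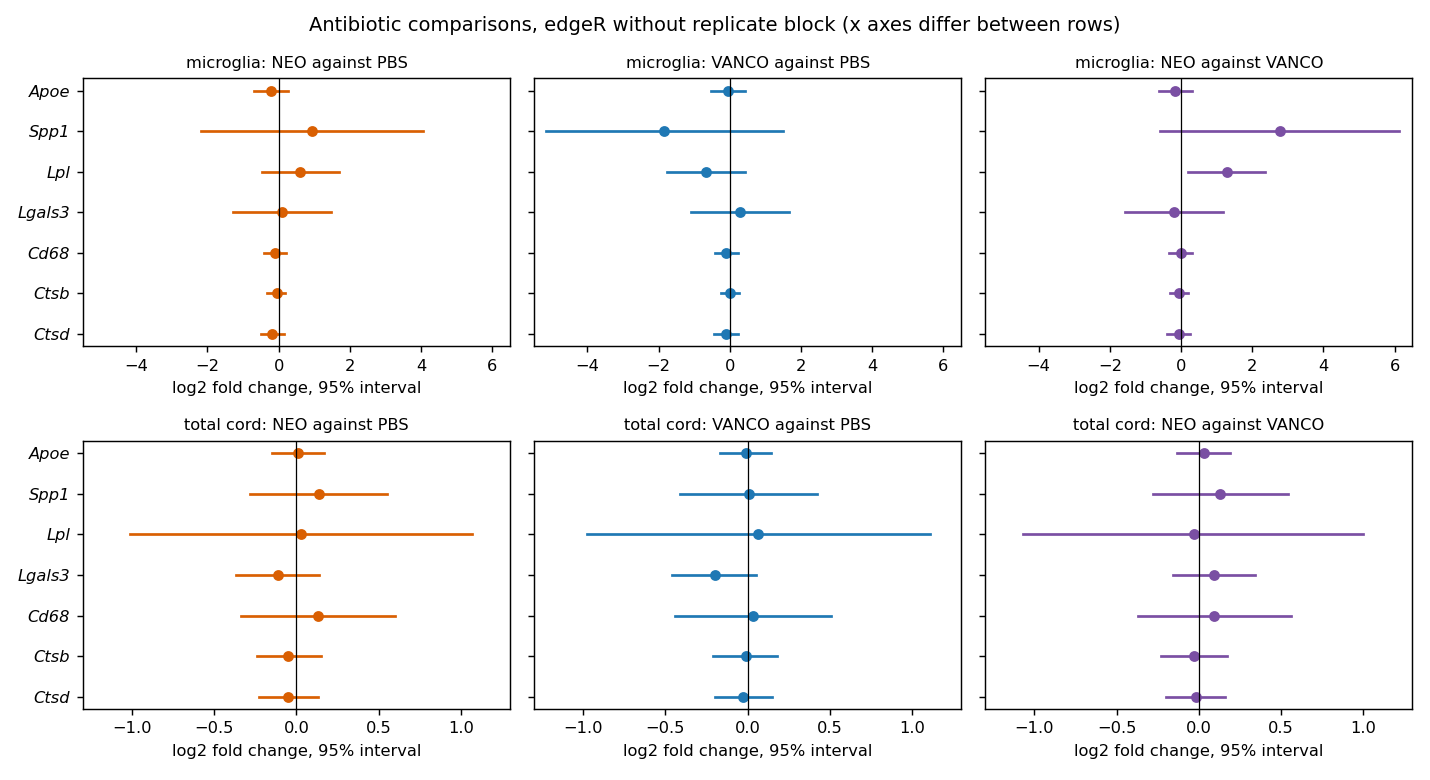
EdgeR log2 fold changes (points) with 95% intervals (lines) for the 7 genes in the 3 antibiotic comparisons, microglia above and total cord below, with x axes that differ between rows. The fits are those without the replicate block. Of the 42 intervals, only that of Lpl for NEO against VANCO in microglia leaves out 0, and it does not pass the adjusted threshold. With the block, not drawn, 0 is also left out in cord for Spp1 and Lgals3. These are Spp1 for NEO against PBS (0.02 to 0.26) and NEO against VANCO (0.02 to 0.25), and Lgals3 for VANCO against PBS (-0.35 to -0.04). None passes the adjusted threshold.

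Whether the antibiotic effect differed between microglia and cord was tested directly by an interaction term. Of the 7 genes 0 passed for NEO and 0 for VANCO in edgeR, where 0% of 15546 genes passed in either. With the block the count was again 0 of 7 for both, against 0.193% and 0.116% of genes. No member had an unadjusted p under 0.05 in these tests. The largest interaction estimate was Spp1 for VANCO, -1.77 (SE 1.64), or -2.14 (SE 1.01, edgeR unadjusted p = 0.0558, adjusted p = 1) with the block.

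The 6 group means were ordered by tissue for all 7 genes, with the 3 groups of 1 tissue next to each other. In that order there were 28 pairs of neighbouring groups from 1 tissue, and in 27 the gap between means was within the larger SD of the pair. The exception was Spp1 in PBS against VANCO microglia, at 1.62 ± 1.16 and 0.444 ± 0.37 CPM (SD, n = 4 each), whose values overlap. At the step between the tissues the gap was above the SD for 6 genes. For Lgals3 it was within the SD, with means of 39.5 ± 24.2 CPM in PBS microglia (SD, n = 4) and 34 ± 4.61 CPM in PBS cord (SD, n = 3).

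**Figure D4:**
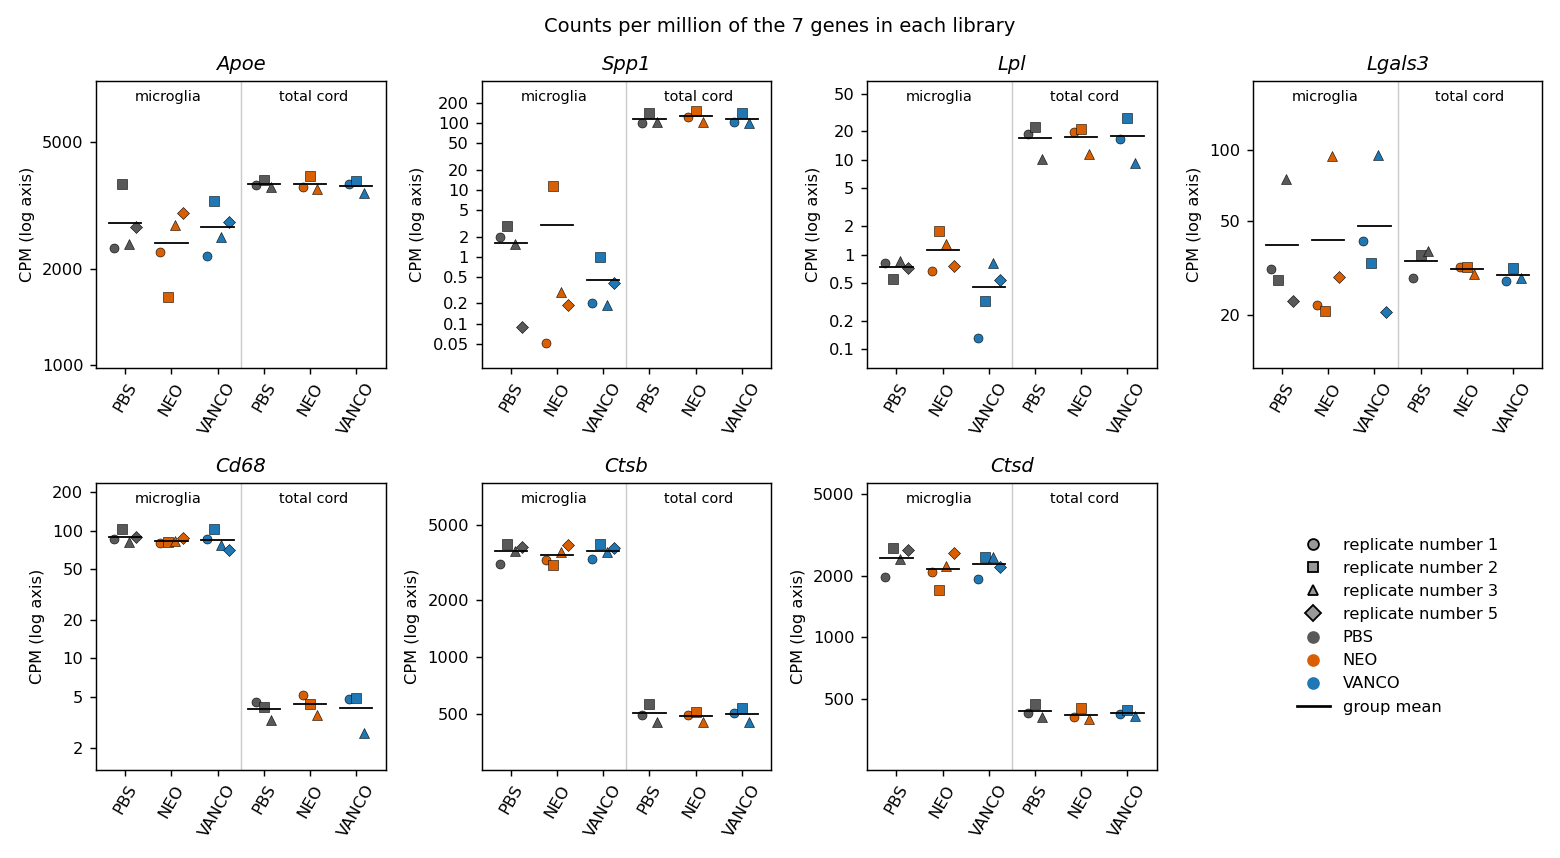
CPM (log axis, range differs by panel) of each gene in the 12 microglia and 9 total cord libraries, 1 point per library, with marker shape for replicate number, colour for treatment and a line for the group mean. The treatments overlap in each tissue for every gene, and Lgals3 in microglia library 3 is high at 75.4, 94.2 and 95.4 CPM.

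Replicate number ordered several of the genes more regularly than treatment did. Microglial Lgals3 was 75.4 to 95.4 CPM in the libraries numbered 3 and 20.7 to 41.2 CPM in the other 9, with no overlap, while the cord libraries numbered 3, at 37.5, 29.9 and 28.8 CPM, were highest of their group under PBS alone. In cord, Lpl was highest in number 2 and lowest in number 3 under each treatment, and Apoe, Ctsb and Ctsd followed the same order. Cord Spp1 was highest in number 2 under each treatment, and cord Cd68 was lowest in number 3 under each. The cord share was highest in number 3 of the cord libraries as well, at 31.4% to 33.2% against 28.7% to 30% in the others. What a number stands for is not in the labels, and its part in these values was not tested.

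**Figure D5:**
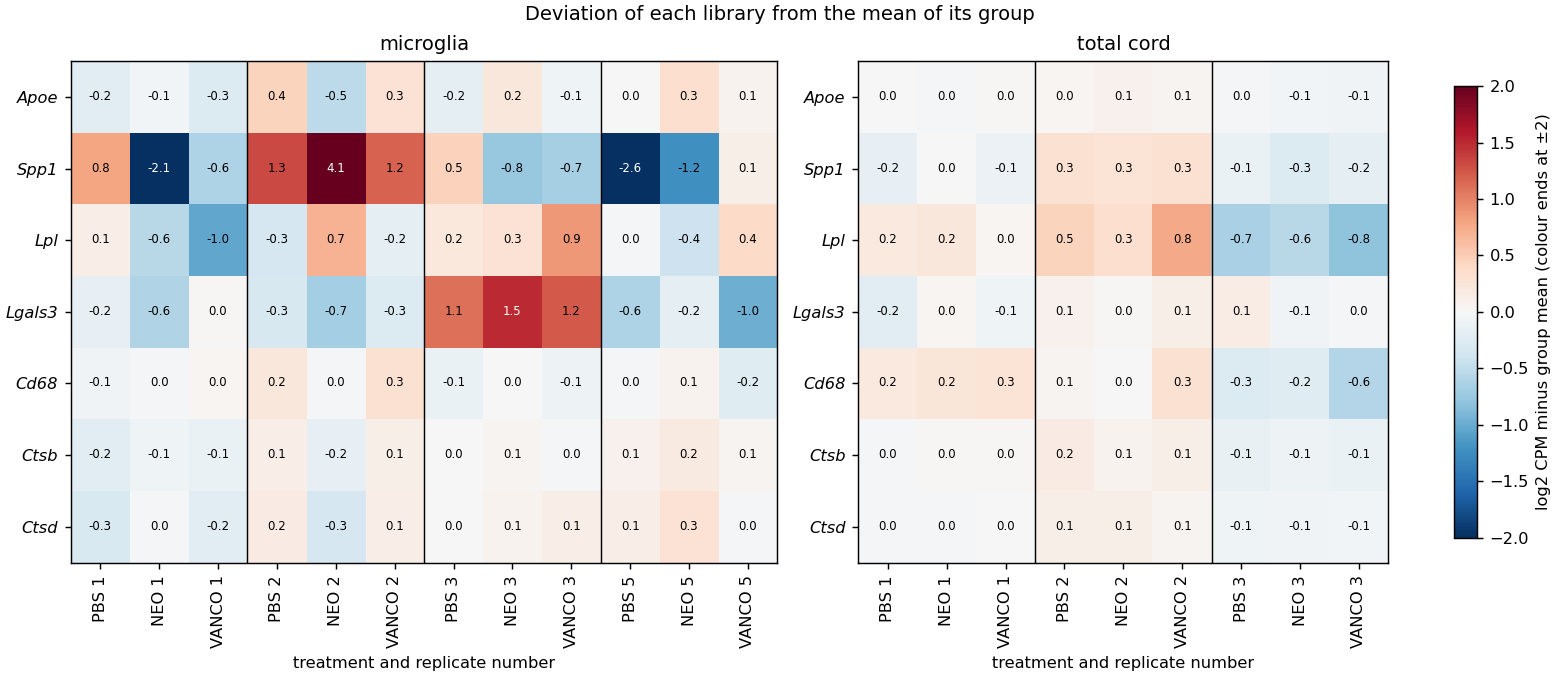
Log2 CPM of each gene minus the mean of its group, by library, arranged by replicate number, for microglia and total cord. Red is above and blue below the group mean, with the colour ending at 2 on either side. Lgals3 in microglia library 3 and Lpl in cord libraries 2 and 3 deviate in the same direction under each treatment, and Spp1 in NEO microglia library 2 has the largest deviation.

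The 7 genes differed widely in how much they varied within groups. In microglia the pooled within-group SD of log2 CPM was 0.14 for Ctsb, 0.16 for Cd68, 0.22 for Ctsd and 0.32 for Apoe, against a median of 0.27 over all genes. It was 0.6 for Lpl, 0.9 for Lgals3 and 1.95 for Spp1, and 98.6% of genes varied less than Spp1. The Spp1 value includes NEO library 2, which was 4.06 above its group mean, and was not computed without it. In cord Apoe was among the steadiest genes, with an SD of 0.06 and only 2.65% of genes lower. Cord Lpl was among the least steady, with an SD of 0.63 and 97% of genes lower. The SD of Cd68 was larger in cord, 0.35, than in microglia, and Lgals3 was the reverse at 0.13 in cord.

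Within microglia, Apoe, Ctsb and Ctsd varied together across libraries. Over the 12 microglia libraries, as a description of libraries that share treatments and replicate numbers, Pearson's r of log2 CPM was 0.9 for Ctsb with Ctsd, 0.88 for Apoe with Ctsb and 0.85 for Apoe with Ctsd. Without NEO library 2 the same values were 0.88, 0.85 and 0.73. Cd68 was less closely related to them, at 0.55 with Apoe (0.62 without NEO library 2), 0.42 with Ctsd and 0.41 with Ctsb. Spp1 with Lpl gave 0.37, and 0.02 without NEO library 2. Over the 9 cord libraries r was 0.9 for Ctsb with Ctsd, 0.9 for Lpl with Ctsb and 0.86 for Lpl with Cd68. Values this high were not confined to the set. Of 14670 other genes in cord, 298 exceeded 0.9 with Lpl, 208 with Cd68, 174 with Ctsb and 78 with Ctsd. Several of the genes had many close companions outside the set in microglia. The closest other gene reached r = 0.985 for Apoe, 0.977 for Spp1, 0.974 for Lgals3, 0.964 for Ctsb and 0.963 for Ctsd. The genes that exceeded 0.9 numbered 62, 99, 102, 34 and 37 in the same order. For Lpl and Cd68 in microglia 0 genes exceeded 0.9, and the closest reached 0.88 and 0.853.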

How the data were processed

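The authors deposited raw gene counts, 1 table per library (21 in all), keyed by Ensembl gene ID. The tools named in the submitters' processing notes are STAR 2.5.2a, bcl2fastq 2.20.0.422 and, for counting, featureCounts 1.5.0-p1, with genome build rn6. Not given in the sources used here are the annotation release, the strand setting and the handling of multiply aligned reads. Counts were fitted with edgeR 4.0.16 (R 4.3.3): filterByExpr, TMM scaling, robust quasi-likelihood test, Benjamini-Hochberg adjustment over all genes tested, threshold 0.05. Antibiotic contrasts used the 12 microglia or the 9 cord libraries, and tissue and interaction contrasts all 21. CPM are counts scaled by the library total. Log2 CPM were scaled the same way, with a prior count of 2 and without TMM factors. Differences within numbers, deviations, within-group SDs and correlations therefore hold any shift in library composition.

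The 7 genes and all lists were chosen with earlier results of these data known, and all 7 are named by rule. Further lipid, phagocytic and marker genes were not reported, because the RefSeq gene table (GRCr8) matched 0 of 32883 IDs. For the same reason the genes closest in pattern carry no name. The cord-enriched genes were picked on the PBS libraries with the 7 genes left out, at 1 CPM or more in cord.

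Replicate numbers paired the samples within a tissue, as seen in deviations from group means between libraries of different treatments. These correlated at 0.25 to 0.79 between same-numbered microglia libraries (12 pairs) and 0.36 to 0.59 in cord (9 pairs). Pairs of unlike number gave -0.56 to 0.34 in microglia (36 pairs) and -0.49 to 0.0069 in cord (18 pairs). Among libraries of the other treatments, every library correlated best with its own number. The pairing rests on the data, not on a label. No 2 libraries of a group agreed within sampling noise. Alternatives were DESeq2 1.42.0, limma-voom (limma 3.58.1), RLE and upper quartile factors, no filter and a filter of 1 CPM, only the compared groups, the replicate block, the cord share as a covariate, and leaving out libraries. The cord share was 2.56% in NEO microglia library 2 and at most 0.306% in the other microglia libraries. That covariate thus acts much like leaving NEO library 2 out. For NEO against PBS in microglia it called 308 genes, against 300 with the block and without that library. The code was tested on simulated data.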

Additional observations from a re-analysis of the deposited data

Results flagged for a closer look

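In groups of 4 microglia libraries, 24 sets of values were examined by Dixon's ratio at the 95% level. In 5 of them 1 library was far from the other 3. Chance does this in about 1 in 20 independent groups of normally distributed values. These sets share libraries and hold CPM or percentages, so 5 of 24 cannot be set against that rate. Spp1 in NEO library 2 was 11.6 CPM, against 0.0518 to 0.299 CPM in the other NEO libraries. The cord share of the same library was 2.56%, against 0.0367% to 0.0984%. In PBS library 2 that share was 0.306%, against 0.0848% to 0.112%.

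Lgals3 was set apart in library 3 under both PBS and NEO. It was 75.4 CPM in PBS library 3, against 23 to 31.3 CPM in the other PBS libraries, and 94.2 CPM in NEO library 3, against 20.8 to 29.1 CPM. The cord shares of these libraries, 0.112% and 0.0984%, were the second highest of their groups. VANCO library 3 had Lgals3 at 95.4 CPM with a share of 0.0645%. NEO library 2, with the highest share at 2.56%, had the lowest Lgals3 of its group at 20.8 CPM. A relation of Lgals3 to the share was not tested.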

How the results depend on the processing

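The replicate block and the other alternatives left 0 of 7 genes called in each antibiotic and interaction comparison. For microglia against cord, 5 or 6 of 7 were called. Of 1702 recomputed log2 fold changes of the 7 genes, 1697 kept their side of the threshold, 260 values that were never called changed sign, and 5 lost a call, all for Apoe in microglia against cord: -0.44, -0.46 and -0.5 without PBS microglia library 1, PBS microglia library 3 or PBS cord library 2, and, with the block, -0.46 and -0.48 without PBS microglia library 3 or 5 (edgeR adjusted p = 0.0559 and 0.051). With number 2 left out Apoe was -1.07. Spp1 in that comparison ranged from -7.89 to -5.82 (-7.33 with limma-voom), and DESeq2 gave it no adjusted p. The block changed no call among the 7 genes.

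Counts over all genes moved more. For NEO against PBS in microglia 5 genes were called, against 66 with DESeq2, 1 with limma-voom, 2 with RLE, 12 with upper quartile factors, 9 without a filter, 0 with only the compared groups, 94 with the block, 308 with the cord share added and 0 to 15 (26 to 300 with the block) on leaving out 1 library. Leaving out number 2 gave 9, or 211 with the block. The other antibiotic comparisons and both interactions had 0 genes called. In microglia VANCO against PBS rose to 5 with DESeq2, 34 with the cord share added and up to 7 on leaving out 1 library with the block. NEO against VANCO there rose to 16 with DESeq2, 21 with the block, 71 with the cord share added and 1 to 75 on leaving out 1 library with the block. In cord NEO against PBS rose to 26 with DESeq2, 15 without a filter, 100 with the block (57 to 89 without 1 library) and 398 with the block and number 2 left out. Cord NEO against VANCO rose to 25, 13, 64 (36 to 64) and 129 in the same settings and to 1 with upper quartile factors, and cord VANCO against PBS to at most 5. The NEO and VANCO interactions rose to 30 and 18 with the block (10 to 162 and 4 to 231 without 1 library), 79 and 38 with number 2 also left out, and at most 1 without the block. The cause was not tested. Depth limits Spp1 and Lpl in microglia, at 1 to 126 and 2 to 26 counts. Lpl could not be tested in microglia with the filter of 1 CPM, nor Spp1 with number 2 left out.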
